A study of Mus musculus with 27 samples.

Results

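10 claudin genes of the mouse kidney, Cldn1, Cldn2, Cldn3, Cldn4, Cldn5, Cldn7, Cldn8, Cldn10, Cldn16 and Cldn19, were followed over 9 ischemia times. They were taken by gene symbol from the 19392 genes of the deposited expression file, all 10 were found, and all 10 passed the filter on low values (above 0 FPKM, fragments counted per gene, scaled for transcript length and library size, in at least 3 kidneys). The question was how their mRNA differed with the length of ischemia 24 h after reperfusion. The samples were 27 left kidneys of C57BL/6 mice, 3 per ischemia time, from a model in which the right kidney was removed and the left renal pedicle was clamped on a 37°C platform for 0, 16, 18, 20, 22, 24, 26, 28 or 30 min. The 0 min group is labelled sham and had no clamping, and the labels' protocol describes removal of the right kidney without naming an exception, so the controls appear to have had a single kidney too; no label of the sham samples says so separately. Whole kidney RNA was sequenced, so fewer cells of a type and less RNA per cell cannot be told apart in any value given here.

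Claudins are membrane proteins that join neighbouring epithelial cells in the tight junction and set which ions and how much water pass between the cells. The nephron changes its set along its length. Cldn2 forms a cation and water pore in the proximal tubule. Cldn10 forms an anion pore in the proximal tubule and, as a different isoform, a cation pore in the thick ascending limb. Cldn16 and Cldn19 serve calcium and magnesium reabsorption in the thick ascending limb. Cldn3, Cldn4, Cldn7 and Cldn8 are found mainly in the distal nephron and collecting duct. Cldn1 marks the parietal cells of Bowman's capsule, and Cldn5 is found in the endothelium.

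The genes lie on 6 chromosomes in the RefSeq annotation of GRCm38.p6. Cldn3 (chr5:134986214-134987476, plus strand) and Cldn4 (chr5:134945123-134946934, minus strand) are neighbours, 39.3 kb apart with 0 protein-coding genes between them. Cldn1 (chr16:26356645-26371839, minus strand) and Cldn16 (chr16:26463135-26482765, plus strand) are also neighbours, 91.3 kb apart with 0 protein-coding genes between them. Cldn3, Cldn4, Cldn5 and Cldn8 each have 1 exon in the coding transcripts of GENCODE, and Cldn10 has 2 annotated starts 67.1 kb apart. The deposited values are per gene, so the isoforms from the 2 Cldn10 starts cannot be told apart. Cldn3 and Cldn19 overlap antisense genes (Wbscr25 and Gm12927) in GENCODE, and the sources used here do not give whether strand was used in counting, so reads of these pairs cannot be assigned with certainty.

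RefSeq promoter windows matched 9 of the 10 claudins, and the 250 bases before each start gave 12 windows. The window of Cldn4, the claudin with the largest fold change among the 10 at 30 min, is printed because it was the 1 member window of 12 with the letters TGANTCA, which AP-1 factors bind; its AP-1 matches and its 1 E-box match (CACCTG) are in capitals. Both strands were searched, and none of these matches overlap. The 2 windows of Cldn10 are printed without capitals to show how its 2 starts differ, at 36.0% and 72.4% G and C.
Cldn4, chr5:134946935-134947184, minus strand: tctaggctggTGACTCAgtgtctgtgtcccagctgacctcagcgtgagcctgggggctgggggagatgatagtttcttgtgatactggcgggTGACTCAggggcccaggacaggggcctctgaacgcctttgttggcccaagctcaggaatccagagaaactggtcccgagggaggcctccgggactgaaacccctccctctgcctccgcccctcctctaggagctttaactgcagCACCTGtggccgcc
Cldn10 upstream start, chr14:118787621-118787870, plus strand: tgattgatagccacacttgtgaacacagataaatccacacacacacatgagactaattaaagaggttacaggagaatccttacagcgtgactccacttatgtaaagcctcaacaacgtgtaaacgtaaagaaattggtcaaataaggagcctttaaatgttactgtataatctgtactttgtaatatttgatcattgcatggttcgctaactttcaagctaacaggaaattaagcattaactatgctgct
Cldn10 downstream start, chr14:118854700-118854949, plus strand: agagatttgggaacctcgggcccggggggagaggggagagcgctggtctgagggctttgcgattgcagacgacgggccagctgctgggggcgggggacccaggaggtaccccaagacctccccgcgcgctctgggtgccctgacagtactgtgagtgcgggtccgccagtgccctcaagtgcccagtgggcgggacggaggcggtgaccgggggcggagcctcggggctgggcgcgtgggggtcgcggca

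The AP-1 letters were in 6.75% of 32851 promoter windows of the same length, and in Cldn4 they stood from -240 to -234 and from -158 to -152 relative to the start. The E-box letters were in 17.2% of windows and, among the claudins, in windows of Cldn4 and Cldn7. The letters searched for GRHL (AACCGGTT) and HNF4 (CAAAGTCCA) were in 0 of the 12 claudin windows and in 0.116% and 0.384% of all windows.

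Summed FPKM per kidney ranged from 512453 to 554036, and 16498 to 16904 genes were above 0 FPKM. Several kidneys stood apart from their groups in marker sums and touch claudin values. In the 16 min group, replicate 3 had a summed FPKM of tubular injury markers of 1544, against 9439 and 12914 in the other two and 1006 to 2045 in the 0 min kidneys. In the same group, replicate 2 had a thick ascending limb marker sum of 1255 FPKM against 2741 and 2407. In the 20 min group, replicate 3 had an injury sum of 4545 FPKM against 10831 and 8884. In the 26 min group, replicate 2 had the lowest sum of thick ascending limb markers among the kidneys of 16 to 26 min (947 FPKM). In the 30 min group, replicate 3 had a thick ascending limb sum of 2265 FPKM against 540 and 535. Umod alone gave 2034 FPKM of it. The highest 30 min values of Slc12a1, Kcnj1, Egf and Ptger3 (142, 64.5, 14.1 and 10.3 FPKM) were each below the lowest control. Umod was the largest part of the thick ascending limb sums, and Spp1 of the injury sums. Some of the results that rest on these kidneys are given with and without them.

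Genes were called differentially expressed (DEGs) where limma gave a log2 fold change above 1 in either direction together with an adjusted p (Benjamini-Hochberg, 18188 genes) under 0.05. At 30 min, 6 of the 10 claudins were DEGs against 0 min, 4 higher and 2 lower, beside 10.7% of all genes tested (5.14% higher and 5.59% lower). Cldn4, Cldn1, Cldn7 and Cldn3 rose, and Cldn10 and Cldn8 fell. At 28 min 5 of 10 were DEGs beside 8.48% of all genes (4.27% higher and 4.21% lower), 3 higher (Cldn1, Cldn4 and Cldn7) and 2 lower (Cldn8 and Cldn10). From 16 to 26 min the 1 claudin called at each time was Cldn4, beside 2.25%, 3.06%, 2.51%, 3.29%, 3.12% and 3.77% of all genes in the order of the 6 times. All of these comparisons share the same 0 min kidneys.

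**Figure D1:**
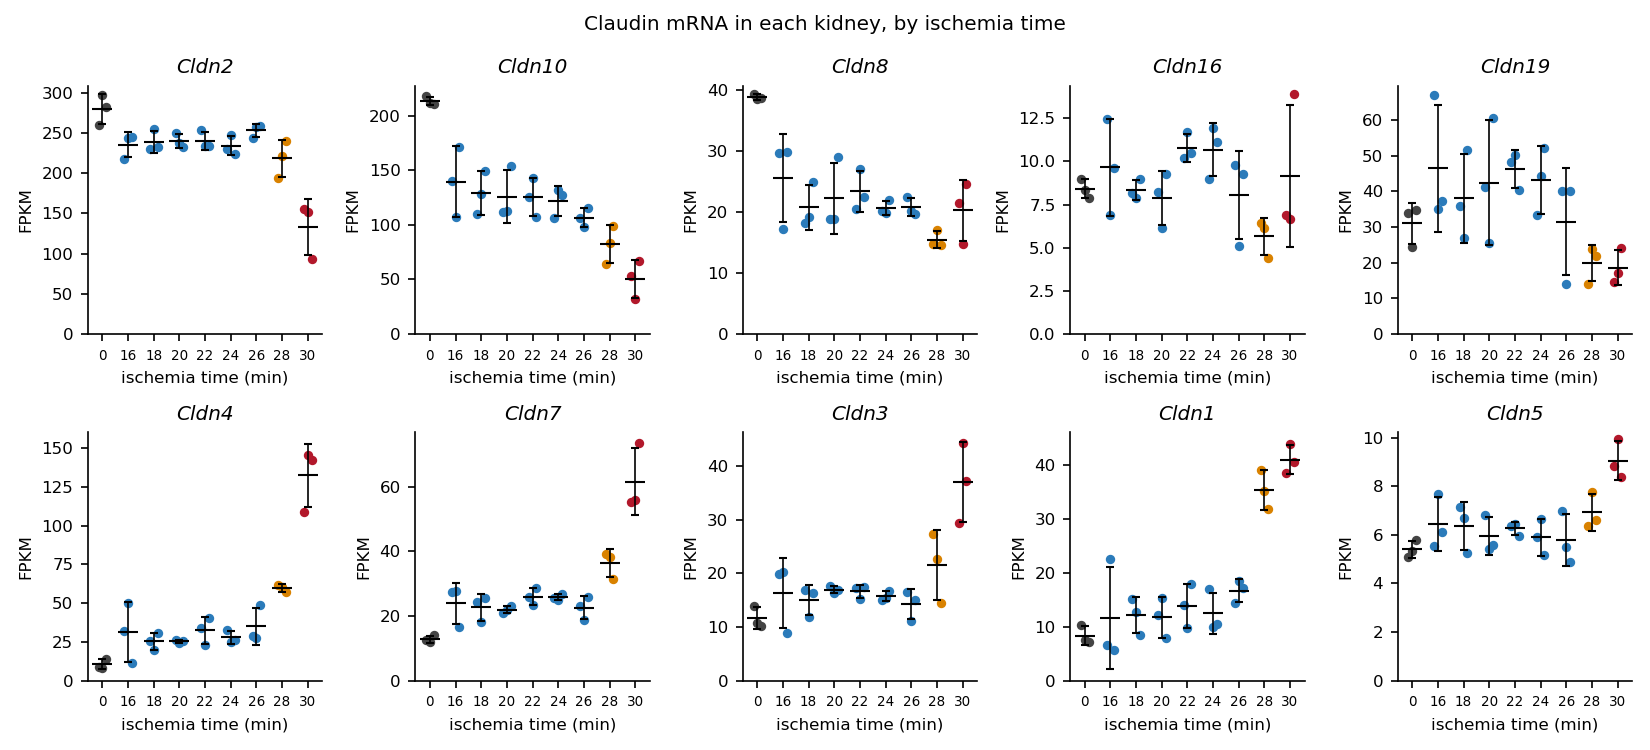
FPKM of each claudin (linear vertical axis) by ischemia time in min (horizontal axis), 1 point per kidney, with the mean (dash) and SD (bar) of 3 kidneys. Cldn4 stood at 8.43 to 14.11 FPKM at 0 min and 108.94 to 145.61 FPKM at 30 min, while Cldn10 stood at 211.2 to 217.94 and 31.86 to 66.57 FPKM.

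Cldn2 and Cldn10 made up most of the claudin mRNA pool in control kidneys, and the values per gene do not assign Cldn10 to a segment. By mean FPKM at 0 min, Cldn2 (280 FPKM) stood above Cldn10 (214), Cldn8 (38.8) and Cldn19 (31.0), with no overlap between kidneys of neighbours in this order. Cldn7 (12.8), Cldn3 (11.6), Cldn4 (10.5), Cldn16 (8.41) and Cldn1 (8.31) followed, each overlapping the next, and Cldn5 was lowest (5.41). At 30 min the order was Cldn2 (134) and Cldn4 (132), which overlapped, then Cldn7 (61.6), Cldn10 (50.6), Cldn1 (40.9) and Cldn3 (37.0), each overlapping the next. The sum over the 10 genes was 620 ± 7.93 FPKM (SD, n = 3) at 0 min and 513 ± 17.4 FPKM at 30 min, with no overlap between kidneys. It was already lower at 16 min (546 ± 10.7 FPKM), and the lowest mean was at 28 min (501 ± 29.1 FPKM). Every kidney from 16 min on was below the lowest control. Within that sum, Cldn2 and Cldn10 took 45.1% ± 2.53 and 34.5% ± 1.05 (SD, n = 3) at 0 min and 26.2% ± 7.34 and 9.87% ± 3.39 at 30 min. Cldn4 took 1.69% ± 0.492 in controls and 6.72% ± 1.80, 11.9% ± 1.17 and 25.7% ± 3.17 in the 26, 28 and 30 min groups. Shares of a sum are not independent of each other, and they were not tested.

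**Figure D2:**
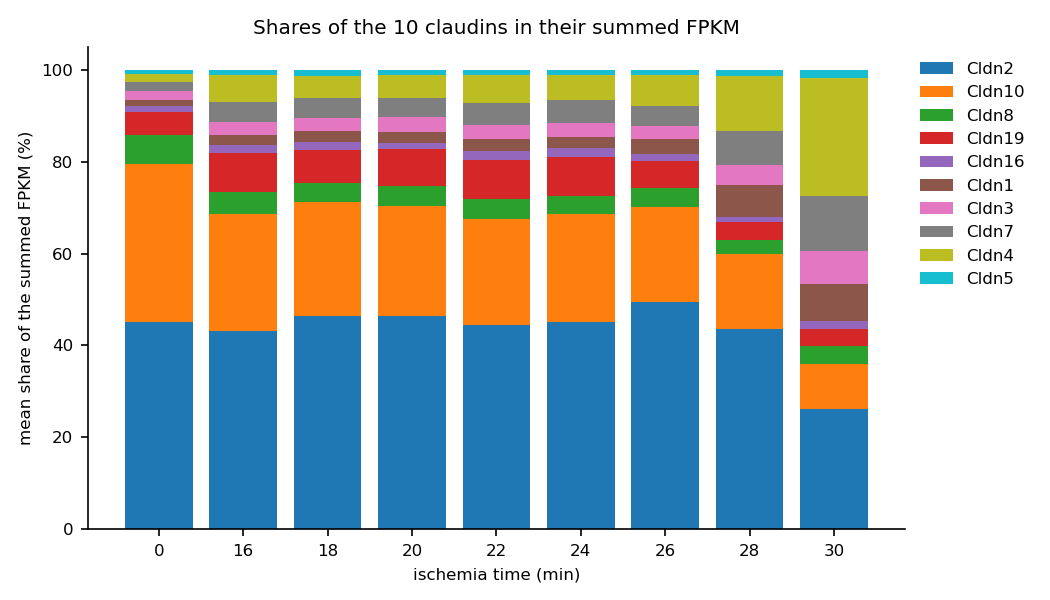
Mean share of each claudin in the summed FPKM of the 10 genes (vertical axis, percent) by ischemia time in min, with 3 kidneys per time. Cldn2 and Cldn10 made up 45.1% and 34.5% at 0 min and 26.2% and 9.87% at 30 min, when Cldn4 reached 25.7%.

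Cldn4, which with Cldn8 takes part in chloride passage in the collecting duct, had the largest rise among the 10. It measured 8.98, 8.43 and 14.11 FPKM in the 0 min kidneys, 61.82, 60.34 and 56.82 FPKM at 28 min, and 108.94, 145.61 and 142.56 FPKM at 30 min. These 3 groups did not overlap. Against 0 min the log2 fold change was 2.32 (SE 0.34, adjusted p = 1.3e-05) at 28 min and 3.56 (SE 0.34, adjusted p = 4.01e-08) at 30 min. Between 28 and 30 min it rose by a further 1.24 (SE 0.34, adjusted p = 0.0215), the 1 claudin called there beside 1.05% of genes. That call was lost when 28 min replicate 2 or 3 or 30 min replicate 2 or 3 was left out (adjusted p = 0.0592, 0.0723, 0.0613 and 0.0992), and when the 28 and 30 min groups were fitted alone (adjusted p = 0.0522).

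At the shorter times Cldn4 was already higher. Over the 18 kidneys of 16 to 26 min it ranged from 11.32 to 50.08 FPKM with a median of 26.9, and 17 of the 18 were above the highest 0 min kidney. The exception was 16 min replicate 3, the kidney with a low injury marker sum, at 11.32 FPKM against 32.01 and 50.08 in the other two. At 16 min the log2 fold change was 1.19 (SE 0.34, adjusted p = 0.0194), and 1.75 without that kidney (adjusted p = 9.35e-05). With the 0 and 16 min groups fitted alone the call was lost (adjusted p = 0.228). From 18 to 26 min it was 1.11, 1.13, 1.43, 1.24 and 1.53. The calls at 16, 18 and 20 min were lost without 0 min replicate 1 or 2 (adjusted p = 0.0618 and 0.0834, 0.0658 and 0.0809, and 0.0696 and 0.0885). They were also lost without 16 min replicate 1 or 2 (0.0782 and 0.152), 18 min replicate 1 or 3 (0.0556 and 0.0773) and 20 min replicate 1 or 2 (0.0651 and 0.0522). The 22, 24 and 26 min calls held whichever single kidney of the compared groups was left out.

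Cldn7, which binds the adhesion protein EpCAM and is found along the distal nephron and collecting duct, stood at 12.55, 11.97 and 14.02 FPKM at 0 min. It measured 39.33, 38.26 and 31.53 FPKM at 28 min and 55.24, 55.95 and 73.71 FPKM at 30 min. The groups did not overlap, and each of the 18 kidneys of 16 to 26 min (16.47 to 28.76 FPKM) was above the highest 0 min kidney. Cldn7 rose by 1.29 on the log2 scale at 28 min (SE 0.17, adjusted p = 2.66e-06) and by 2.11 at 30 min (SE 0.17, adjusted p = 2.9e-09). At 16 to 26 min it was between 0.64 and 0.86, which passed on adjusted p but not on fold. The differences of 0.66 from 26 to 28 min (adjusted p = 0.00884) and 0.82 from 28 to 30 min (adjusted p = 0.0035) were also short of the fold threshold.

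Cldn1, a sealing claudin, had its largest step between 26 and 28 min. It measured 10.35, 7.44 and 7.15 FPKM at 0 min, 14.32, 18.41 and 17.19 FPKM at 26 min, 39.06, 35.11 and 31.71 FPKM at 28 min, and 38.48, 43.88 and 40.42 FPKM at 30 min. The 28 min kidneys lay above every shorter time and overlapped those of 30 min. Cldn1 was the 1 claudin called between 26 and 28 min, beside 1.50% of all genes, with a log2 fold change of 1.02 (SE 0.35, adjusted p = 0.0438). Leaving out any 1 of these 6 kidneys ended the call (adjusted p = 0.0729 to 0.135). Between the same times Cldn7 (0.66, adjusted p = 0.00884) and Cldn4 (0.79, adjusted p = 0.118) also rose without overlap. Cldn2 (-0.19, adjusted p = 0.309) and Cldn8 (-0.44, adjusted p = 0.136) were lower without overlap. Against 0 min the log2 fold change was 1.84 at 28 min (SE 0.35, adjusted p = 0.000186) and 2.12 at 30 min (SE 0.35, adjusted p = 3.02e-05). Among the 16 min kidneys Cldn1 was 6.54, 22.5 and 5.74 FPKM, so replicate 2 alone was above the 0 min range. Its log2 fold change at 16 min was 0.10 (adjusted p = 0.889), and -0.46 without that kidney (adjusted p = 0.322).

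Cldn3, the neighbour of Cldn4 on chromosome 5 and also a sealing claudin, was a DEG at 30 min but not at the shorter times. It measured 13.92, 10.73 and 10.1 FPKM at 0 min, 27.4, 22.68 and 14.47 FPKM at 28 min, and 29.42, 44.32 and 37.24 FPKM at 30 min. The 30 min kidneys lay above all others, while all 3 kidneys of 28 min and 15 of the 18 kidneys of 16 to 26 min were above the highest control. The log2 fold change was 1.51 at 30 min (SE 0.25, adjusted p = 3.05e-05) and 0.66 at 28 min (SE 0.25, adjusted p = 0.0325, short of the fold threshold). From 28 to 30 min it was 0.85 (SE 0.25, adjusted p = 0.0274), and it passed the fold threshold when 28 min replicate 1 or 30 min replicate 1 was left out (1.05 and 1.02).

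**Figure D3:**
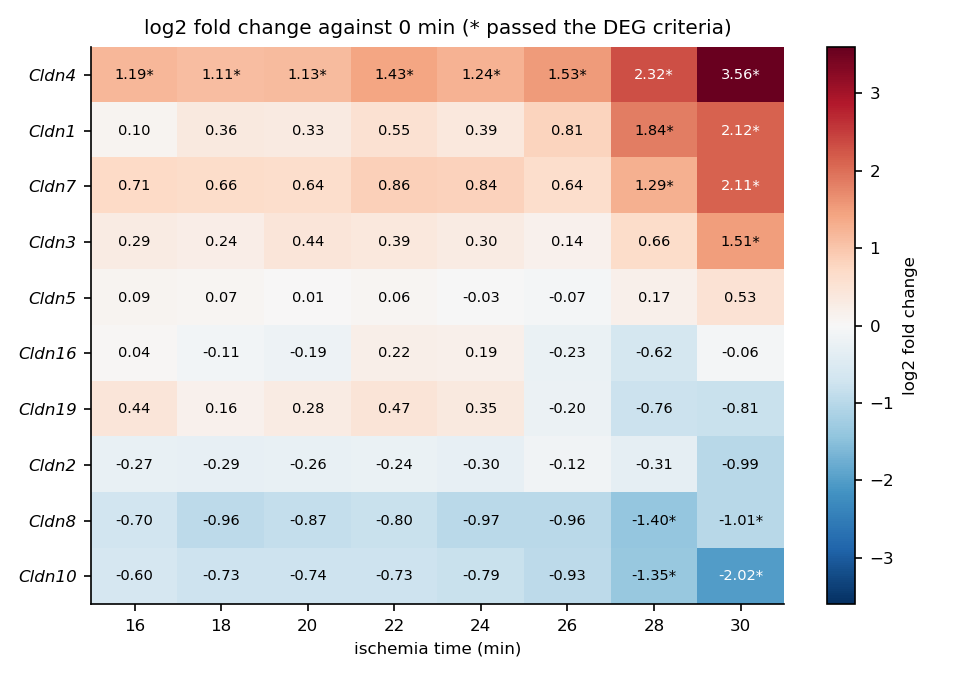
log2 fold change of each claudin (rows) against 0 min at each ischemia time in min (columns), with red for higher, blue for lower and an asterisk for DEGs. Cldn4 was a DEG at all 8 times, Cldn1, Cldn7, Cldn8 and Cldn10 at 28 and 30 min, and Cldn3 at 30 min, while all 8 values of Cldn2, Cldn8 and Cldn10 were below 0.

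Cldn10, the second most abundant of the 10 in controls, fell. It measured 217.94, 211.8 and 211.2 FPKM at 0 min, 64.44, 82.99 and 99.18 FPKM at 28 min, and 53.38, 31.86 and 66.57 FPKM at 30 min. The 28 and 30 min kidneys overlapped each other and lay far below the controls. Cldn10 fell by 1.35 on the log2 scale at 28 min (SE 0.22, adjusted p = 3.64e-05) and by 2.02 at 30 min (SE 0.22, adjusted p = 1.84e-07). Each of the 18 kidneys of 16 to 26 min (97.89 to 171.52 FPKM) was below the lowest control. The log2 fold change at these times ran from -0.60 at 16 min to -0.93 at 26 min, with adjusted p under 0.05 from 18 min on and the fold short of the threshold. In the order of group means Cldn10 was lower at each longer time, but neighbours from 16 to 30 min overlapped.

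Cldn8, a barrier to cations in the collecting duct and a target of the ubiquitin ligase adaptor Klhl3, was tight in controls at 39.35, 38.45 and 38.63 FPKM. It measured 14.81, 17.04 and 14.54 FPKM at 28 min and 21.39, 14.77 and 24.56 FPKM at 30 min. The lowest mean was at 28 min, and the 28 and 30 min kidneys overlapped. Cldn8 fell by 1.40 on the log2 scale at 28 min (SE 0.20, adjusted p = 8.29e-06) and by 1.01 at 30 min (SE 0.20, adjusted p = 0.000221). The 30 min value sat at the fold threshold: it was -0.99 without 0 min replicate 1, -0.81 without 30 min replicate 2, -0.94 without quantile normalization and -0.95 with FPKM rescaled to a constant sum, and the call was lost in each. All 18 kidneys of 16 to 26 min (17.25 to 29.85 FPKM) were below the lowest control, with log2 fold changes of -0.70 to -0.97 that passed on adjusted p alone. At 16 min the value was -0.44 without replicate 2 (adjusted p = 0.143), and at 20 min it was -1.07 without replicate 3 (adjusted p = 0.00121).

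Cldn2, the most abundant of the 10, measured 259.87, 297 and 281.79 FPKM at 0 min and 194.31, 221.22 and 240.11 FPKM at 28 min. At 30 min it measured 155.91, 151.39 and 93.52 FPKM, and these kidneys lay below all others. The log2 fold change of -0.99 at 30 min (SE 0.12, adjusted p = 1.03e-06) lay just outside the fold threshold, as Cldn8 lay just inside it. It passed without quantile normalization (-1.09) and with FPKM rescaled to a constant sum (-1.10), and when 0 min replicate 1 (-1.05), 30 min replicate 1 (-1.12) or 30 min replicate 2 (-1.09) was left out, while it was -0.76 without 30 min replicate 3. From 28 to 30 min the difference was -0.68 (SE 0.12, adjusted p = 0.00163). All 18 kidneys of 16 to 26 min (217.32 to 258.88 FPKM) were below the lowest control. The log2 fold changes at these times were -0.12 to -0.30, and none passed on adjusted p (0.0726 to 0.52).

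Cldn16 and Cldn19, the magnesium and calcium pair of the thick ascending limb, did not pass the DEG criteria at any time. Cldn16 measured 9, 8.34 and 7.9 FPKM at 0 min, 6.41, 6.15 and 4.43 FPKM at 28 min, and 6.88, 6.69 and 13.89 FPKM at 30 min. The high 30 min value belonged to replicate 3, the kidney with the thick ascending limb sum of 2265 FPKM, most of it Umod. The log2 fold change of Cldn16 was -0.62 at 28 min (SE 0.24, adjusted p = 0.0385) and -0.06 at 30 min (SE 0.24, adjusted p = 0.87), and -0.37 at 30 min without that kidney (adjusted p = 0.194).

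Cldn19 measured 33.9, 24.48 and 34.63 FPKM at 0 min, 14.07, 23.75 and 21.73 FPKM at 28 min, and 14.71, 17.05 and 24.1 FPKM at 30 min. The 28 and 30 min kidneys were all below the lowest control. The log2 fold change was -0.76 at 28 min (SE 0.36, adjusted p = 0.0916) and -0.81 at 30 min (SE 0.36, adjusted p = 0.0688). Without 30 min replicate 3 it was -1.01 at 30 min (adjusted p = 0.0453), which passed. From 16 to 26 min Cldn19 ranged from 14.16 to 66.82 FPKM, and the lowest value was 26 min replicate 2, the kidney with the lowest thick ascending limb sum at these times. Without it the 26 min log2 fold change was 0.28 (adjusted p = 0.611) in place of -0.20 (adjusted p = 0.745).

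Segment markers were measured in the same kidneys. All 5 thick ascending limb markers fell at 28 and at 30 min, with a median log2 fold change of -2.27 and -2.09, and their sum was 1960 to 2237 FPKM in controls and 558 to 824 FPKM at 28 min. Of 10 proximal tubule markers 9 fell at 30 min (median -2.21), and their sum was 5017 to 5660 FPKM in controls and 1153 to 1323 FPKM at 30 min. At 28 min 3 of 4 distal convoluted tubule, 3 of 8 principal cell and 3 of 7 intercalated cell markers fell (medians -1.61, -0.60 and -0.94), beside 4.21% of all genes lower. At 30 min 2 of 4, 1 of 8 and 1 of 7 fell (medians -1.28, -0.54 and -0.60), beside 5.59% of all genes lower. Of 9 tubular injury markers 8 rose at 30 min (median 3.62), beside 5.14% of all genes higher, and their sum was 21614 to 27840 FPKM. No marker of these lists was at 0 FPKM in any kidney. The part of these marker levels in the claudin values was not tested, nor was the difference between claudins and markers.

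**Figure D4:**
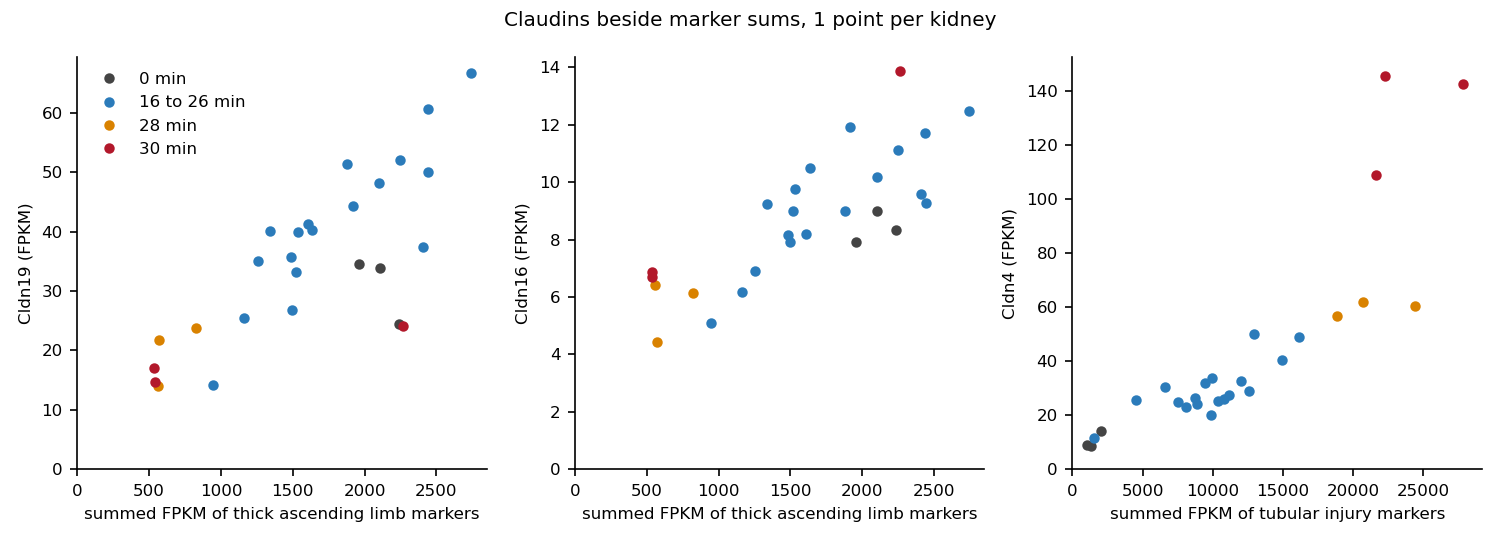
Cldn19 and Cldn16 against the summed FPKM of 5 thick ascending limb markers, and Cldn4 against that of 9 tubular injury markers, 1 point per kidney, coloured by ischemia time, with both axes in FPKM. 1 kidney of 30 min stands at a thick ascending limb sum of 2265 FPKM, most of it Umod, and 13.89 FPKM of Cldn16. The 30 min kidneys hold 108.94 to 145.61 FPKM of Cldn4 at injury sums of 21614 to 27840 FPKM, most of it Spp1.

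Cldn5, which is found in endothelium, measured 5.1, 5.34 and 5.79 FPKM at 0 min and 8.83, 9.95 and 8.37 FPKM at 30 min. Whole kidney values do not assign it to a cell type. The groups did not overlap, but the log2 fold change was 0.53 (SE 0.12, adjusted p = 0.0011), short of the fold threshold. The 8 endothelial markers had a median log2 fold change of 0.54 at 30 min, with 0 called. Of these 8, 5 had an unadjusted limma p under 0.05, beside 10311 of all 18188 genes tested. The sum of the 8 markers was 93.6 to 112 FPKM in controls and 128 to 188 FPKM at 30 min. At the other times the log2 fold change of Cldn5 was between -0.07 and 0.17. Of 6 podocyte markers 1 rose at 30 min (Synpo), and of 9 immune cell markers 4 rose, beside 5.14% of all genes higher. The podocyte markers had a median log2 fold change of 0.76 at 30 min. Their sum was 46.7 to 66.5 FPKM in controls and 80.3 to 138 FPKM at 30 min.

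Within 16 to 26 min, 0 of the 10 claudins had a slope over ischemia time at an adjusted p under 0.05, beside 0.0110% of all genes, and 0 had an unadjusted p under 0.05. The slopes ran from -0.03 for Cldn19 to 0.06 for Cldn1 in log2 units per min, with SEs of 0.03 for both. With the fold criterion dropped, a rule chosen after seeing the data, 3 claudins at 16 min and 4 at each time from 18 to 26 min passed, beside 19.0%, 27.8%, 22.8%, 28.8%, 28.3% and 30.1% of all genes. At 28 and 30 min this rule passed 8 and 8 claudins, beside 48.2% and 52.3% of all genes. From 26 to 28 min it passed 2, beside 19.3%, and from 28 to 30 min 5, beside 13.2%.

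Most of the other claudins were low at 0 min. Only Cldn12 (24.2 FPKM), the claudin domain gene Cldnd1 (12.5 FPKM) and Cldn15 (6.88 FPKM) averaged 1 FPKM or more, and Cldn13 was listed at 0 in all 3 kidneys. Of 18 on the list 16 were in the file and 15 were tested, and 0 were DEGs at 30 min beside 10.7% of all genes. An unadjusted limma p under 0.05 was found for 6 of the 15, beside 10311 of all 18188 genes tested. The 15 had a median log2 fold change of 0.04 against 0.000772 over all genes. The log2(FPKM + 1) scale understates changes of low genes: Cldn6 stood at 0.603 FPKM at 0 min and 2.37 FPKM at 30 min, with a log2 fold change of 0.98 (adjusted p = 2.71e-06). Cldn14, which binds Cldn16 and lowers its cation permeability, was a DEG at 28 min. It averaged 0.133 FPKM in controls and 0.743, 3.89 and 1.01 FPKM in the 26, 28 and 30 min groups (SD 0.126, 0.327, 2.12 and 0.516, n = 3 each). Its log2 fold change was 1.97 at 28 min against 0 min (SE 0.31, adjusted p = 2.32e-05), 1.39 against 26 min (adjusted p = 0.00355) and -1.19 from 28 to 30 min (adjusted p = 0.0143), though the 28 and 30 min kidneys overlapped (1.45 to 5.17 and 0.47 to 1.5 FPKM).

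Of 27 partners of claudins in the tight junction 1 rose and 1 fell at 30 min, beside 10.7% of all genes called, with a median of -0.00193. Lsr, which recruits proteins to tricellular junctions, rose from 24.7 FPKM at 0 min to 53.1 FPKM (1.03 on the log2 scale, adjusted p = 2.73e-05), and the polarity kinase Prkcz fell from 30.1 to 13.6 FPKM (-1.17, adjusted p = 2.78e-10). The scaffold Tjp1 and occludin (Ocln) were at 0.59 and -0.28. Among partners of EpCAM and Cldn7, the tetraspanins Cd9 (1.34, adjusted p = 1.26e-07) and Tspan8 (1.11, adjusted p = 6.21e-05) and the membrane protease St14 (1.18, adjusted p = 5.17e-06) rose, while Epcam itself was at 0.31 (adjusted p = 0.151).

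Among 19 regulators of claudins, 1 rose and 3 fell at 30 min (median -0.14), beside 5.14% of all genes higher and 5.59% lower. Klhl3, through which Cldn8 is ubiquitinated, fell from 12.3 FPKM at 0 min to 2.59 FPKM (-1.97 on the log2 scale, adjusted p = 2.13e-07). The calcium sensing receptor Casr, which acts on Cldn14 and Cldn16 in the thick ascending limb, fell from 16.6 to 5.67 FPKM (-1.52, adjusted p = 1.53e-05), and the kinase Wnk1 was at -1.11. The epithelial factor Elf3 rose from 14.1 to 33.5 FPKM (1.10, adjusted p = 0.00059). The same 3 genes, Klhl3, Casr and Wnk1, were DEGs at 28 min (-1.98, -1.67 and -1.21).

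**Figure D5:**
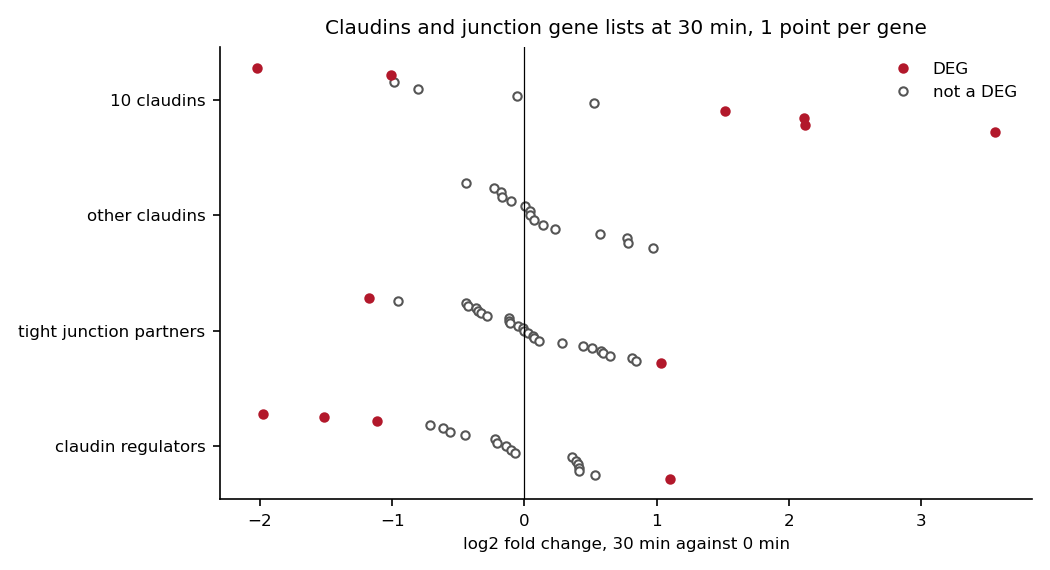
log2 fold change at 30 min against 0 min (horizontal axis) of the 10 claudins and of the lists of other claudins, tight junction partners and claudin regulators, 1 point per tested gene, filled for DEGs. 6 of the 10 claudins are filled, with 0 of 15 other claudins, 2 of 27 partners and 4 of 19 regulators. The other claudins except Cldn12, Cldnd1 and Cldn15 averaged under 1 FPKM at 0 min, where calls are harder to reach.

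For each claudin that was a DEG, the 2 genes with the most similar profile were sought among 12336 genes by the root mean square difference in log2 fold change against 0 min over 8 times. For Cldn4 these were the heat shock protein Hspb1 (0.169) and the keratin Krt18 (0.234). For Cldn7 they were Itpr3 (0.112) and Coro2a (0.112), for Cldn3 Nipal1 (0.0720) and Rhou (0.0728), and for Cldn1 Klrg2 (0.183) and Zbtb8b (0.214). For Cldn10 they were Snx29 (0.105) and Slc10a5 (0.106), and for Cldn8 Acadsb (0.0954) and Thra (0.106). The fold changes compared share the 0 min kidneys.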

How the data were processed

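Left kidneys of 27 mice in 9 ischemia groups were measured by RNA sequencing, and the groups were taken from the labels. The authors deposited 1 table of FPKM per gene, to 2 decimals; the submitters' processing notes name Bowtie2, RSEM, DESeq2 and GRCm38.p6, while annotation, versions and the role of each tool are not given in the sources used here. Absolute depth is unknown from FPKM: low values gave whole fragments within 0.1 for 66.1% of 363 values, too few to recover reads. The relative value of 1 fragment ran from 0.923 to 1.059 between kidneys. Only values in a narrow band above each gene's lowest were used for it, so it cannot show whether depth was similar.

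log2(FPKM + 1) was quantile normalized and fitted in limma 3.58.1 (R 4.3.3) for 18188 genes (above 0 FPKM in at least 3 kidneys), each ischemia time having its own mean, after the procedure had been tested on simulated data. DEGs needed more than 1 on the log2 scale in either direction and an adjusted p under 0.05; slopes were called on adjusted p. The members and the gene lists were chosen with earlier results of these data known. Besides the 10 claudins, the text names genes of the lists, and for each claudin called against 0 min the 2 genes closest in profile with a mean of at least 1 FPKM. Alternatives covered the pseudocount, low value filter, normalization, error model, samples fitted, replicate number and single kidneys left out. Promoter windows came from RefSeq (GRCm38.p6). Figures were drawn with matplotlib. Replicate numbers did not pair the kidneys. Some list genes, and the counts of the lists that hold them, are not reported here.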

Additional observations from a re-analysis of the deposited data

How the results depend on the processing

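The 46 claudin differences followed here are those with an adjusted p under 0.05 in the fit reported above, a set in which reversal was unlikely. Calls gained by other differences are not in these values. Apart from kidneys left out, there were 414 alternative values of the 46. Of these, 400 kept their direction and their side of the DEG criteria, 9 lost and 5 gained a call, and 0 reversed. Of 109 alternative counts of claudins called, 91 were within 1.5 times the reported count. With the compared groups fitted alone, the count was 0 at 16 min and 0 from 28 to 30 min. With pseudocounts of 0.1 and 0.01 FPKM it was 2 at 24 min and 0 from 26 to 28 min. It was 2 at 26 min without quantile normalization, and 0 from 26 to 28 min with FPKM rescaled to a constant sum or with no filter. On adjusted p alone, a rule chosen after seeing the data, it was 3 at 16 min, 4 at each time from 18 to 26 min, 8 at 28 min, 2 from 26 to 28 min and 5 from 28 to 30 min. With 1 kidney left out, the counts ran from 0 to 1 at 16 and 18 min, 0 to 2 at 20 min, 1 to 1 at 22 min, 1 to 2 at 24 and 26 min, 5 to 5 at 28 min, 6 to 7 at 30 min, 0 to 0 from 26 to 28 min, 0 to 2 from 28 to 30 min and 0 to 0 for the slope. The causes were not tested. Of 640 alternative counts over the gene lists, 531 were within 1.5 times.

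The replicate numbers did not pair the kidneys: the correlations of same-numbered deviations ran from -0.30 to 0.27, and in 0 of 10 comparisons were all 3 over 0.1. With replicate number as a block the counts of claudins called were 1 at each time from 16 to 26 min, 5 at 28 min and 6 at 30 min, as without it.

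Depth per kidney is unknown, and values per gene do not separate isoforms or cell types.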

Other observations

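Other junction genes were measured beside the claudins. At 30 min against 0 min, 3 of 12 adherens junction genes rose and 0 fell (median log2 fold change 0.75), beside 10.7% of all genes called. These were the cadherins Cdh3 (1.79 to 7.74 FPKM, log2 fold change 1.50) and Cdh6 (1.15) and Nectin2 (1.31), while E-cadherin, Cdh1, was at 0.85 and the kidney cadherin Cdh16 at -0.64, both short of the fold threshold. Of 11 desmosome genes 1 rose, the plakin Ppl, from 1.93 FPKM at 0 min to 16.0 FPKM at 30 min (2.40, adjusted p = 6.88e-07). Among gap junction genes the channel Panx1 rose from 0.607 to 3.69 FPKM (1.41, adjusted p = 8.65e-06), and the connexin Gjb2 fell from 75.2 to 30.6 FPKM (-1.33, adjusted p = 2.5e-09).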
